A study of Mus musculus with 29 samples.

Results

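The genes described here are 36 mouse genes of the endoplasmic reticulum (ER), the compartment in which secreted and membrane proteins are made, folded and checked. They were taken as a fixed list of symbols covering ER chaperones, the translocation machinery and ER quality control, by function and not by a threshold on measured values. All 36 were among the 22327 gene symbols of the deposited count table, and all 36 passed the low-count filter that left 16074 genes for testing. By role they were 10 lumenal chaperones and cofactors, 2 lectin chaperones, 5 disulfide isomerases, 8 genes of translocation, 8 genes of ER-associated degradation and 3 genes of stress sensing.

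RNA bound to tagged ribosomes was pulled down from mouse cortex and sequenced (translating ribosome affinity purification, TRAP) in 29 libraries from mice aged 6 months, all labelled as microglia, in a study of the microglial integrated stress response. In all 7 groups the ribosomal protein L10a fused to eGFP was switched on by Cx3cr1CreErt2, a Cre allele of microglia and other macrophages, after 6 doses of 100 mg/kg tamoxifen. The TRAP group (n = 5) carried only this Cre and the eGFP-L10a tag, and had no further treatment. The Eif2A group (n = 4) also carried Eif2s1 A/A with Tg(Eif2s1), an allele pair of the translation factor eIF2α whose mutant product cannot be phosphorylated once the transgene is removed. The sample labels give both Eif2A groups the tag, whereas the series' design text leaves it out of their genotypes. The iPKR groups carried an allele that joins the tag to the viral protease NS3 and an inducible form of PKR, an eIF2α kinase. They received 1 µg/kg VEGF with a PEG:DMSO vehicle (iPKR vehicle, n = 4) or with 5 mg/kg of the NS3 inhibitor ASV (iPKR ASV, n = 5) over 4 weeks. Mice with 5xFAD carry human amyloid precursor protein and presenilin transgenes with familial Alzheimer's disease mutations. These were added to the plain tag with VEGF and ASV (5xFAD TRAP, n = 4), to Eif2A with tamoxifen alone (5xFAD Eif2A, n = 3) and to iPKR with VEGF and ASV (5xFAD iPKR, n = 4). The comparison of 5xFAD TRAP with TRAP therefore holds the transgenes and the drug treatment together, and these cannot be told apart. The labels give each library a sex and a batch, 1 or 2, and both Eif2A groups lie wholly in batch 1.

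Proteins enter the ER through the Sec61 channel, are cut by signal peptidase, and fold with the help of the chaperone BiP, the calnexin and calreticulin lectin cycle and enzymes that form disulfide bonds. Proteins that fail to fold are drawn out and degraded. When folding falls behind, the unfolded protein response acts through IRE1 with its splicing target XBP1, through ATF6, and through PERK, which phosphorylates eIF2α. The first 2 arms raise transcription of ER chaperones, and PERK shares its target with PKR, so that the genes listed here border on the integrated stress response without being its ATF4 targets as a group.

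The ER stress response element is the sequence by which ATF6 with NF-Y acts on chaperone promoters, and it is shown because 8 of these genes carried an exact copy of it. It was searched as CCAAT, 9 bases, CCACG on both strands of the 250 bases before each RefSeq start (build GRCm38.p6). Promoters were held for 28 of the 36 genes, of which 8 (28.6%) had a match, against 35 of 27025 genes (0.13%). The list was drawn up for a pathway defined partly by this response, so the share describes the list. In the copies below, read 5′ to 3′ in the element's own direction, capitals mark CCAAT and CCACG.
Hspa5: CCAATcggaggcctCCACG
Hsp90b1, first copy: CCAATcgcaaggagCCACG
Hsp90b1, second copy: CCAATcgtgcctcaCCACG
Dnajc3: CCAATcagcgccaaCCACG
Pdia6: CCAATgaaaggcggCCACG
Calr: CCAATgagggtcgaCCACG
Canx: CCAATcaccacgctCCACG
Creld2: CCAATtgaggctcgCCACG
Syvn1: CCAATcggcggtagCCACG

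The copies ended between 25 bases (Syvn1) and 193 bases (Hsp90b1) before the RefSeq start, and those of Calr, Creld2 and the second of Hsp90b1 faced against the gene. The Hspa5 copy, at chr2:34772025-34772043, lies before the RefSeq start but inside the longer GENCODE gene model. Hsp90b1, which encodes the chaperone GRP94, was the gene with 2 copies. Its upstream stretch on the minus strand of chr10:86705510-86705694 ends at the start of the longer GENCODE gene model, which lies before the RefSeq start, so distances within it are shorter than those counted above. It is printed in the gene's direction with both copies in capitals.
Hsp90b1 upstream: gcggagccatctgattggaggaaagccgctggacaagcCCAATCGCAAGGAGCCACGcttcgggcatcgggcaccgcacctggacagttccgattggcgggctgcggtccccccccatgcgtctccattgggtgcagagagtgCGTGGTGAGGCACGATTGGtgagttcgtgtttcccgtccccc
The related element ERSE-II (ATTGG, 1 base, CCACG) was in 0 of the 28 promoters and in 0.037% of all promoters. The unfolded protein response element TGACGTGG was in 1, that of Txndc5, and in 0.603% of all. The amino acid response element TGATG, 1 base, AAT, to which ATF4 binds, was in 0 of 28 and in 0.91% of all. A match describes these letters only, and 8 genes had no promoter in the table.

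Library totals ran from 1.662 to 31.998 M counts (M for mega), with a median of 6.049 M. Levels below are CPM, the counts relative to the library total, scaled by TMM, a size factor taken over most genes, and are given per library in order of replicate number. Microglial markers (11 of 12 listed present) took 2.86 to 4.87% of counts in the 16 libraries without iPKR and 0.0709 to 1.59% in the 13 with it. Neuron markers (10 of 12 present) took 0.0592 to 0.423% and 0.506 to 3.70% of counts respectively. Their highest shares were in iPKR ASV replicate 3 (2.33%) and 5xFAD iPKR replicates 1 (3.20%) and 2 (3.70%), all of batch 1. The counts of the 36 genes called in the iPKR comparisons are given below with and without these 3 libraries. No marker of either list was at 0 throughout a group. In such bulk pulldowns, fewer cells of a type and less RNA per cell cannot be told apart. The labels do not say whether replicates are separate mice, so the p-values measure only the spread between these libraries, which may be technical. A count per gene cannot show the mutant Eif2s1 allele, so that label was not checked here.

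In plain-tag microglial pulldowns the 36 genes covered a wide range of levels. Per kilobase of exon, Sdf2l1 stood highest in TRAP at 182 CPM, with Spcs1 (177), Calr (150), Xbp1 (148) and Pdia3 (142) next. The lowest were Atf6 (3.27), Hyou1 (1.503) and Ern1 (1.14). These per-length levels are approximate, since it is not given in the sources used here whether reads in introns were counted. Averaged over the 36 genes on a log2 scale, the 5 TRAP libraries lay between -0.160 and 0.164 of their own mean and the 4 Eif2A libraries between -0.220 and 0.048. On the same scale 5xFAD TRAP lay at 0.086 to 0.356 and 5xFAD Eif2A higher, at 0.577 to 0.655. The 9 iPKR libraries without 5xFAD lay at -1.64 to -1.02, and 5xFAD iPKR at -0.636 to -0.463.

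**Figure D1:**
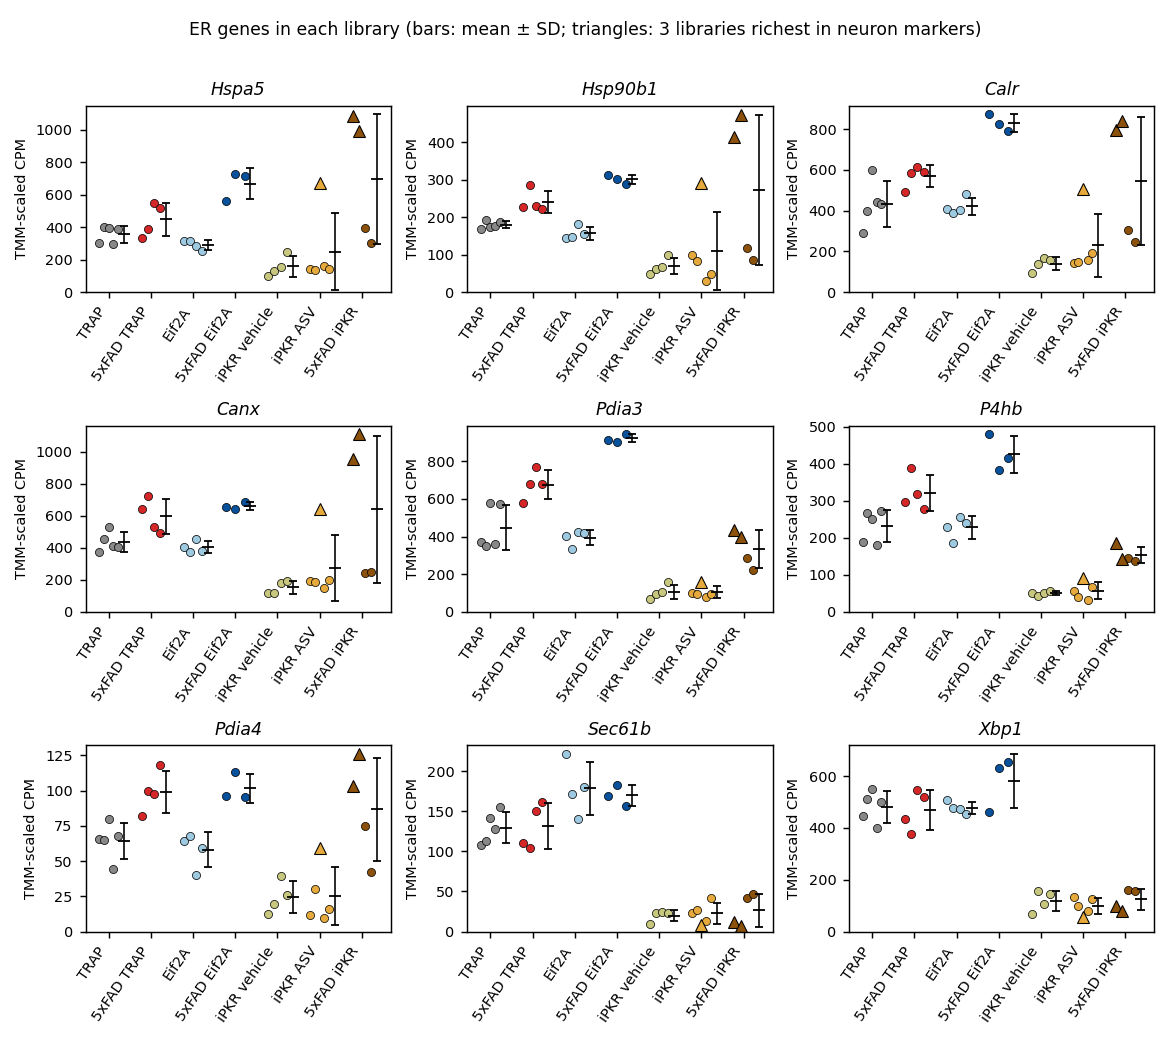
TMM-scaled CPM (vertical axes, from 0) of 9 ER genes in each of the 29 libraries by group (horizontal axis); points are libraries, bars are mean ± SD, and triangles are the 3 libraries richest in neuron markers. All 3 libraries of 5xFAD Eif2A lie above the 4 Eif2A libraries for Pdia3, P4hb, Hspa5 and Calr, and the triangles lie far above the other iPKR libraries for Hspa5, Hsp90b1, Calr and Canx.

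The first comparison concerns 5xFAD on the Eif2A background, where the mutant eIF2α lacks the phosphorylation site of the integrated stress response. With 5xFAD, 7 of the 36 genes rose and 0 fell, beside 2.08% of all genes tested that rose and 1.03% that fell. They were 3 disulfide isomerases (Pdia3, P4hb, Txndc5), the nucleotide exchange factor Sil1, the translocon-associated protein gene Ssr1, and Syvn1 and Derl1 of ER-associated degradation. The estimate was above 0 for 35 of 36 genes, with a median log2 fold change of 0.77, beside -0.06 over all genes. Over all genes the test called 334 higher and 165 lower, and 303 higher and 230 lower with another size factor (RLE).

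Pdia3 encodes ERp57, the disulfide isomerase that works with calnexin and calreticulin (chromosome 2, 121413775 to 121438687, mm10). It stood at 402, 334, 423 and 418 CPM in Eif2A and at 916, 905 and 946 CPM in 5xFAD Eif2A. The 3 libraries with 5xFAD were all more than 2 times the level of the highest without it, and lay close together. The means were 394 ± 41.4 (SD, n = 4) and 922 ± 21.4 (n = 3), a log2 fold change of 1.29 ± 0.25 (SE; edgeR's quasi-likelihood test, adjusted p = 0.00212). P4hb, which encodes protein disulfide isomerase itself (chromosome 11, 120560298 to 120573253), stood at 228, 186, 257 and 241 CPM in Eif2A and 481, 383 and 415 CPM with 5xFAD. Its groups did not overlap (log2 fold change 0.96 ± 0.21 SE, edgeR adjusted p = 0.00964). Txndc5, an isomerase of the same family, went from 63.4, 49.4, 71.9 and 78.8 CPM to 159, 148 and 128 CPM, again without overlap (1.15 ± 0.22 SE, edgeR adjusted p = 0.00243). The other isomerases, Pdia6 (0.95 ± 0.28 SE, edgeR adjusted p = 0.0598) and Pdia4 (0.88 ± 0.42 SE), did not pass the threshold, though their groups did not overlap.

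Sil1, which renews the nucleotide on BiP, stood at 59.96, 22.9, 26.4 and 31.4 CPM in Eif2A and 124, 81.9 and 84.3 CPM in 5xFAD Eif2A. Its lowest library with 5xFAD was above the highest without it (log2 fold change 1.51 ± 0.39 SE, edgeR adjusted p = 0.0251). Among the other lumenal chaperones no member passed the threshold. Hspa5, which encodes BiP (chromosome 2, 34771970 to 34777547), stood at 317, 315, 281 and 252 CPM in Eif2A and 561, 729 and 716 CPM with 5xFAD, without overlap (1.29 ± 0.43 SE, edgeR adjusted p = 0.104). Hsp90b1 stood at 144, 146, 181 and 156 CPM and 313, 301 and 289 CPM, and Sdf2l1, a cofactor of BiP's partner ERdj3, at 243, 200, 222 and 253 CPM and 503, 474 and 518 CPM. Both were without overlap, with edgeR adjusted p = 0.248 and 0.118. The lectin chaperone Calr, calreticulin (chromosome 8, 84841850 to 84846934), was at 410.0, 388, 403 and 479.9 CPM and 875, 823 and 789 CPM (1.05 ± 0.35 SE, edgeR adjusted p = 0.105).

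In translocation, Ssr1 alone of 8 genes passed, from 154, 151, 253 and 189.8 CPM to 356, 377 and 382 CPM (1.02 ± 0.21 SE, edgeR adjusted p = 0.00564). Sec61b, a subunit of the channel, was at 221, 172, 141 and 179.8 CPM and 169, 183 and 157 CPM, and its groups overlapped (95% interval of the log2 fold change -0.82 to 0.73). The median over the 8 genes was 0.29, beside 0.96 over the 5 isomerases. In ER-associated degradation 2 of 8 rose. Syvn1, which encodes the ubiquitin ligase HRD1, went from 14.4, 9.38, 22.4 and 16.8 CPM to 30.3, 36.5 and 32.6 CPM (1.03 ± 0.27 SE, edgeR adjusted p = 0.0265). Derl1, part of the channel that draws proteins out of the ER, went from 159.9, 169, 203 and 202 CPM to 306, 333 and 351 CPM (0.88 ± 0.22 SE, edgeR adjusted p = 0.0198). Of the 3 sensor genes 0 passed. Xbp1, whose spliced form cannot be read from a count per gene, was at 508, 477, 473 and 453 CPM and 461, 632 and 652 CPM, and the groups overlapped.

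Of the members not yet named in this comparison, 0 passed, and several had groups without overlap. The share of all genes whose groups did not overlap was not counted. Overlap in this and the other comparisons therefore only describes the values shown. Dnajc3, the co-chaperone p58IPK, stood at 124, 68.1, 112 and 92.5 CPM in Eif2A and 184, 216 and 179 CPM with 5xFAD, without overlap (1.00 ± 0.33 SE). Dnajb9, the co-chaperone ERdj4, was at 41.2, 43.03, 46.5 and 36.8 CPM and 39.6, 58.1 and 67.03 CPM (0.40 ± 0.29 SE), with overlap. Hyou1, a large relative of BiP with few counts here, was at 10.8, 11.3, 11.5 and 18.9 CPM and 9.85, 17.4 and 14.97 CPM, and its 95% interval of -0.95 to 1.34 was wide. Sel1l, the partner of HRD1, was at 63.2, 52.96, 77.9 and 54.1 CPM and 107, 125 and 106 CPM without overlap (0.87 ± 0.30 SE). Edem3 (0.48 ± 0.28 SE), Spcs3 of the signal peptidase (0.31 ± 0.20 SE), the translocon-associated Ssr3 (0.10 ± 0.23 SE) and Ern1, which encodes IRE1 (0.49 ± 0.48 SE), all overlapped, whereas Ssr2 (0.61 ± 0.25 SE) and Derl2 (0.39 ± 0.32 SE) did not.

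Microglial markers took 3.05 to 3.94% of counts in Eif2A and 4.29 to 4.87% in 5xFAD Eif2A, with 1 of 11 markers called. All 8 markers of plaque-associated microglia rose, and neuron markers took 0.0858 to 0.108% and 0.0592 to 0.0883%. Their part in the result was not tested. The number called depended on which libraries entered the model, which sets the genes kept, the scaling, the batch and sex terms and the estimate of spread together. In the 4 groups without iPKR, an analysis added after the data were seen, 22 of 36 rose and 8.7% of genes rose. These included Hspa5 (1.18 ± 0.14 SE, edgeR adjusted p = 1.77e-05), Hsp90b1, Calr, Canx, Sdf2l1, Edem1 and Edem2. In batch 1 alone 13 of 36 rose, beside 2.93% of genes. Left out 1 at a time, 5xFAD Eif2A replicate 2, 5xFAD Eif2A replicate 3 and Eif2A replicate 2 brought the count to 4, 3 and 4. In these fits 1.09%, 1.25% and 1.31% of all genes rose. Pdia3, Ssr1 and Txndc5 were called with every 1 of the 7 libraries left out (highest edgeR adjusted p = 0.0172, 0.0402 and 0.0321). P4hb lost its call without 5xFAD Eif2A replicate 3 (edgeR adjusted p = 0.0532), Derl1 without 4 of the 7, and Sil1 and Syvn1 each without 6 of the 7.

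**Figure D2:**
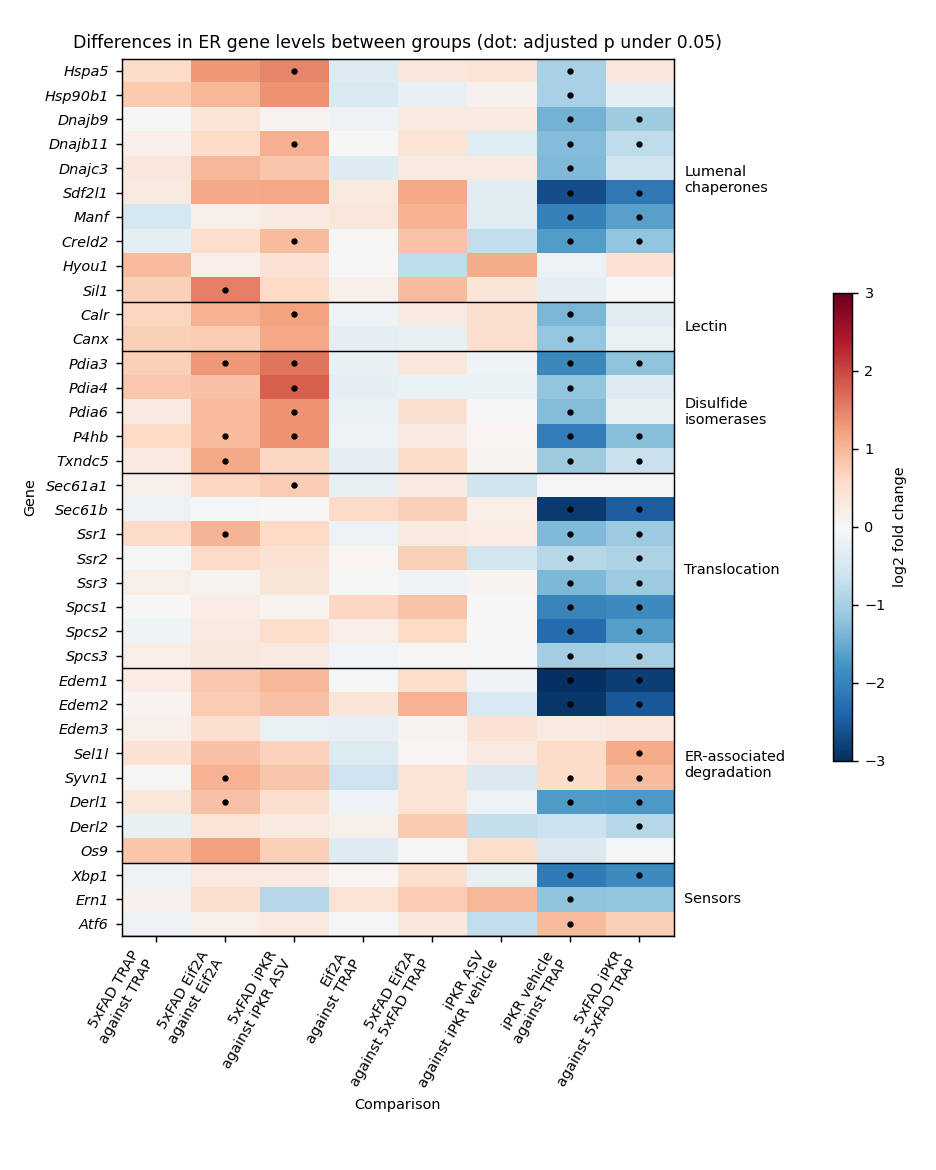
Heat map of log2 fold changes (colour, red higher and blue lower in the first group named) of the 36 ER genes (rows, by role) in 8 comparisons (columns); dots mark an edgeR adjusted p under 0.05. Dots are absent from 5xFAD TRAP against TRAP, Eif2A against TRAP, 5xFAD Eif2A against 5xFAD TRAP and iPKR ASV against iPKR vehicle, and fill most of the iPKR vehicle against TRAP column.

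On the plain tag, 5xFAD TRAP against TRAP called 0 of the 36 genes in edgeR's quasi-likelihood test, beside 0.709% of all genes higher and 0.0809% lower. At an unadjusted p under 0.05 there were 6, beside 10.2% of all genes, and DESeq2 called 0. Estimates were above 0 for 26 of 36 with a median log2 fold change of 0.21. Pdia3 had the smallest p, at 369.9, 349.7, 581, 361 and 574 CPM in TRAP and 577, 679, 771 and 679 CPM in 5xFAD TRAP, and the groups overlapped slightly (0.73 ± 0.23 SE, edgeR adjusted p = 0.167). P4hb was at 189, 268, 251, 182 and 273 CPM and 296, 388, 319 and 278 CPM, without overlap (0.60 ± 0.20 SE, edgeR adjusted p = 0.191). Hspa5 was at 302, 399, 395, 295 and 388 CPM and 332, 389, 550.2 and 518 CPM, Calr at 288, 398, 600.3, 439.9 and 434 CPM and 493.3, 587, 613 and 589 CPM, and both overlapped. Hsp90b1, at 169, 192, 175, 176 and 188 CPM in TRAP and 227, 285, 229.8 and 223 CPM in 5xFAD TRAP, did not overlap. Its fitted log2 fold change was 0.78 ± 0.39 (SE) with all 29 libraries, whose batch term the iPKR libraries share, and 0.41 ± 0.11 SE, edgeR adjusted p = 0.0252 in the 4 groups without iPKR.

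In those 4 groups 6 of 36 rose, beside 4.1% of genes. They were the lectin chaperone Canx (0.53 ± 0.11 SE, edgeR adjusted p = 0.00655), Hsp90b1, Pdia3 (0.58 ± 0.12 SE, edgeR adjusted p = 0.00698), P4hb, Sil1 (0.81 ± 0.20 SE, edgeR adjusted p = 0.0156) and Os9, a lectin that reads misfolded glycoproteins (0.68 ± 0.13 SE, edgeR adjusted p = 0.0029). Os9 stood at 93.4, 126, 141, 127 and 139 CPM in TRAP and 178, 228, 186 and 189.6 CPM in 5xFAD TRAP, without overlap. Manf, an ER-resident protein that is secreted on stress, had the lowest estimate in the model of all 29 libraries (-0.52 ± 0.28 SE). In the 4 groups without iPKR its estimate was -0.42 ± 0.18 (SE). It stood at 123, 157, 209.7, 163 and 179 CPM in TRAP and 91.8, 112, 182 and 200.4 CPM in 5xFAD TRAP. Its 5xFAD libraries split into a low pair of batch 1 and a high pair of batch 2. Replicates 1 and 2 of 5xFAD TRAP also held more neuron markers (0.423 and 0.244% of counts) than the other 2 (0.0987 and 0.110%), and their part was not tested. All 8 markers of plaque-associated microglia rose in this comparison too, with a median log2 fold change of 4.32.

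**Figure D3:**
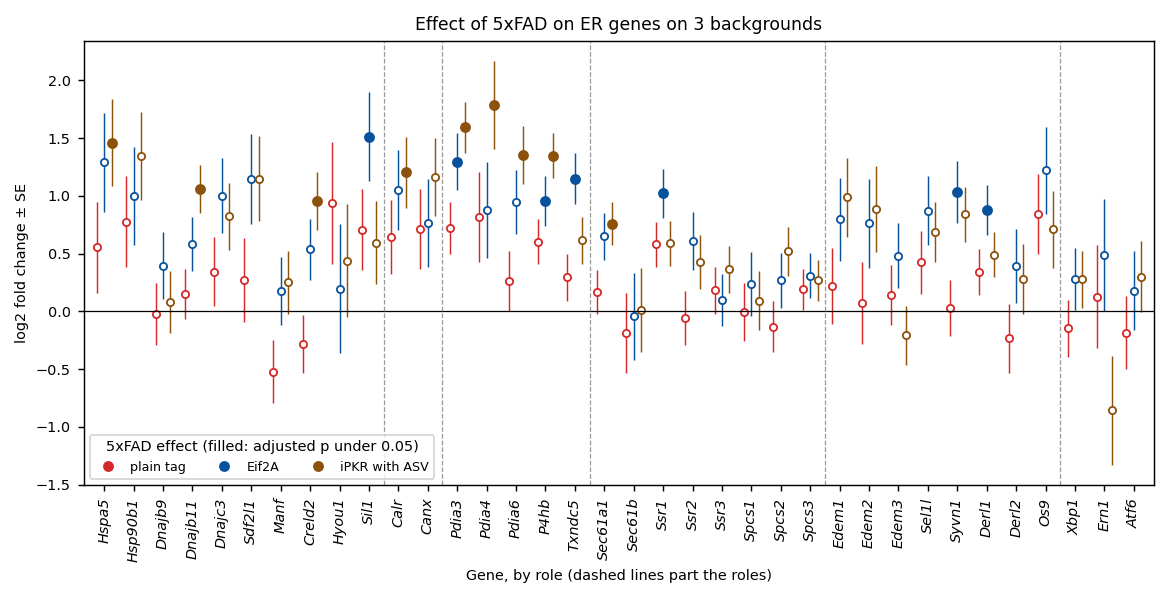
Log2 fold change with 5xFAD ± SE (vertical axis) of the 36 ER genes (horizontal axis, by role) on the plain tag, on Eif2A and on iPKR with ASV; filled points have an edgeR adjusted p under 0.05. No point is filled on the plain tag, 7 are on Eif2A and 9 on iPKR. In edgeR's model of all 29 libraries, the difference of the Eif2A or iPKR effect from the plain-tag effect was not called for any of the 36 genes. The Eif2A and iPKR effects were not compared with each other.

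Whether the 5xFAD effect differed between the Eif2A background and the plain tag was tested as a difference of differences. Of the 4 groups in it only 5xFAD TRAP had VEGF and ASV, so allele and treatment cannot be told apart in this contrast. With all 29 libraries 0 of 36 genes passed edgeR's test, beside 0.00622% of all genes. At an unadjusted p under 0.05 there were 3, beside 4.27% of all genes, and DESeq2 called 0. The estimates were above 0 for 34 of 36, with a median of 0.44 on the log2 scale. Txndc5 (0.85 ± 0.30 SE, 95% interval 0.24 to 1.46) and Syvn1 (1.00 ± 0.36 SE) had the smallest p, both with an adjusted p of 1. In the 4 groups without iPKR, Hspa5 passed (1.03 ± 0.20 SE, edgeR adjusted p = 0.0293), as did 0.304% of all genes. The direct comparison of 5xFAD Eif2A with 5xFAD TRAP called 0 of 36 genes in edgeR, beside 0.168% of all genes in either direction. At an unadjusted p under 0.05 there were 10, beside 10.8% of all genes. Over all genes edgeR called 7 higher and 20 lower here, and 6 and 9 with RLE size factors. DESeq2 called 1 of the 36, Manf, and its share over all genes is not given here. In the 4 groups without iPKR 7 of 36 were higher in 5xFAD Eif2A, beside 2.83% of genes. Sdf2l1 stood at 230.3, 215, 369 and 381 CPM in 5xFAD TRAP and 503, 474 and 518 CPM in 5xFAD Eif2A, without overlap (0.94 ± 0.18 SE, edgeR adjusted p = 0.00584 in that fit). The other 6 were Spcs1, Edem2, Hspa5, Manf, Creld2 and Pdia6. Both groups carried 5xFAD, but 5xFAD TRAP was given VEGF and ASV and 5xFAD Eif2A was not, so genotype and treatment cannot be told apart here. In the model of those 2 groups alone 16 of 36 were higher, beside 5.66% of genes.

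Eif2A against TRAP, without 5xFAD, called 0 of 36 in edgeR and 0 in DESeq2, beside 0% of all genes in edgeR. The 2 at an unadjusted p under 0.05 compare with 5.67% of all genes, which is close to their share of the list. The estimates lay between -0.62 (Syvn1) and 0.61 (Spcs1, a signal peptidase subunit), with a median of -0.09. Hspa5 was at 302, 399, 395, 295 and 388 CPM in TRAP and 317, 315, 281 and 252 CPM in Eif2A, with overlap (95% interval of the log2 fold change -1.18 to 0.39). Spcs1 was at 219, 250.5, 316, 285 and 299.6 CPM and 406, 372, 380.1 and 409.6 CPM, without overlap. It and Sec61b passed in the 4 groups without iPKR, where 1.75% of genes rose (0.53 ± 0.10 SE, edgeR adjusted p = 0.0123; 0.50 ± 0.12 SE, edgeR adjusted p = 0.0329).

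On the iPKR background with ASV, 9 of the 36 genes rose with 5xFAD and 0 fell, beside 1.54% of all genes that rose and 0.18% that fell. Of the isomerases, Pdia3, Pdia4, Pdia6 and P4hb rose, and Txndc5 was the 1 of 5 that did not pass. The co-chaperone Dnajb11 (ERdj3), Hspa5, Calr, the channel subunit Sec61a1 and the ER-stress protein Creld2 were the others. The median over the 36 genes was 0.65, with 34 estimates above 0.

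Pdia3 stood at 98.1, 95.7, 158, 78.9 and 93.05 CPM in iPKR ASV and 436, 399.5, 284 and 221 CPM in 5xFAD iPKR, without overlap (1.59 ± 0.22 SE, edgeR adjusted p = 8.55e-05). P4hb stood at 55.2, 41.1, 92.2, 31.8 and 67.7 CPM and 186, 143, 146 and 138 CPM, also without overlap (1.35 ± 0.19 SE, edgeR adjusted p = 0.00013). Within iPKR ASV the highest library of both genes was replicate 3. Pdia6 went from 66.2, 76.2, 177, 99.8 and 97.05 CPM to 288, 381, 224 and 194 CPM (1.36 ± 0.25 SE, edgeR adjusted p = 0.00231). Pdia4 went from 11.8, 30.6, 59.5, 9.31 and 15.8 CPM to 103, 126, 75.01 and 42.2 CPM (1.79 ± 0.38 SE, edgeR adjusted p = 0.0106), and here replicate 3 of iPKR ASV overlapped the 5xFAD libraries. Dnajb11 went from 41.2, 42.8, 47.1, 28.7 and 62.4 CPM to 99.00, 109.5, 93.7 and 83.5 CPM without overlap (1.06 ± 0.21 SE, edgeR adjusted p = 0.00517). Sec61a1 went from 38.6, 56.6, 52.4, 52.1 and 46.3 CPM to 78.1, 76.3, 87.6 and 87.7 CPM, again without overlap (0.76 ± 0.19 SE, edgeR adjusted p = 0.0292).

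The abundant chaperones spread far more widely. Hspa5 stood at 142, 133, 669, 162 and 140.1 CPM in iPKR ASV and 1082, 993, 395 and 304 CPM in 5xFAD iPKR (1.46 ± 0.38 SE, edgeR adjusted p = 0.04). The high values, 669, 1082 and 993 CPM, are those of the 3 libraries richest in neuron markers, and the groups overlapped. Calr was likewise highest in those libraries, at 143, 146, 504, 156 and 194 CPM and 797, 838, 306 and 244 CPM (1.20 ± 0.31 SE, edgeR adjusted p = 0.0387). Hsp90b1, at 98.6, 83.4, 291, 30.1 and 48.9 CPM and 415, 475, 118 and 85.5 CPM, did not pass (edgeR adjusted p = 0.0689), nor did Canx (edgeR adjusted p = 0.0774). Canx was at 194, 187, 645, 150.1 and 196 CPM in iPKR ASV and 956, 1112, 243 and 249.9 CPM with 5xFAD. Sec61b ran the other way between libraries, at 23.2, 27.2, 8.54, 12.8 and 41.9 CPM and 11.7, 6.51, 42.3 and 46.7 CPM, with its lowest 3 values in the same 3 libraries. Xbp1, at 132, 101, 54.8, 81.02 and 127 CPM and 99.8, 81.1, 162 and 158 CPM, likewise had its lowest level of each group in them.

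Without the 3 libraries rich in neuron markers, 10 of 36 genes rose, beside 3.97% of all genes. They were Pdia3 (1.18 ± 0.22 SE, edgeR adjusted p = 0.00148), P4hb (1.41 ± 0.22 SE, edgeR adjusted p = 0.000271), Pdia4, Pdia6, Hspa5 (1.05 ± 0.23 SE, edgeR adjusted p = 0.0071), Sec61a1, Sdf2l1 (1.59 ± 0.33 SE, edgeR adjusted p = 0.00407), Edem1, Edem2 and Syvn1. Calr (0.58 ± 0.21 SE, edgeR adjusted p = 0.142), Dnajb11 and Creld2 did not pass without them. In batch 1 alone, which holds all 3, 11 of 36 rose beside 1.89% of genes, among them Hspa5 (1.84 ± 0.42 SE, edgeR adjusted p = 0.026), Hsp90b1, Calr and Canx. In batch 2 alone, with 2 libraries a group, 1 of 36 rose, Pdia4 (2.24 ± 0.43 SE, edgeR adjusted p = 0.0219), beside 0.613% of genes. The batch 2 estimates of Pdia3 (1.38 ± 0.31 SE, edgeR adjusted p = 0.0531), P4hb (1.33 ± 0.32 SE, edgeR adjusted p = 0.0697) and Hspa5 (1.10 ± 0.33 SE, edgeR adjusted p = 0.187) were above 0 but not past the threshold.

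With only the 2 groups in the model 0 of 36 rose, beside 0.0668% of genes, and with the replicate block 5 rose, beside 0.765%. Leaving out iPKR ASV replicates 1, 3 or 4 or 5xFAD iPKR replicate 1 gave 5, 14, 5 and 5. Without iPKR ASV replicate 1, 1.2% of all genes rose, and the shares in the other fits are not given here. Pdia3, P4hb, Pdia4, Pdia6 and Dnajb11 were called with every 1 of the 9 libraries left out, and Hspa5, Calr, Sec61a1 and Creld2 each lost their call in 6 of the 9. The share of microglial markers was 0.0709 to 0.772% in iPKR ASV and 0.157 to 1.59% in 5xFAD iPKR, and 4 of the 11 were called higher. The part of microglial and neuronal RNA in these differences was not tested. The difference between this 5xFAD effect and that on the plain tag was called for 0 of 36 genes in edgeR, beside 0.0373% of all genes. At an unadjusted p under 0.05 there were 8, beside 6.74% of all genes. Without the 3 libraries rich in neuron markers 0 of 36 passed edgeR's test either, beside 1.63% of all genes. Creld2 had the smallest p (1.24 ± 0.36 SE, edgeR adjusted p = 0.336). DESeq2 called 1 of the 36, Creld2, and its share over all genes is not given here. The 2 effects in that contrast share no library. The plain-tag effect adds VEGF and ASV to 5xFAD and the iPKR effect does not, so genotype and treatment cannot be told apart in it.

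**Figure D4:**
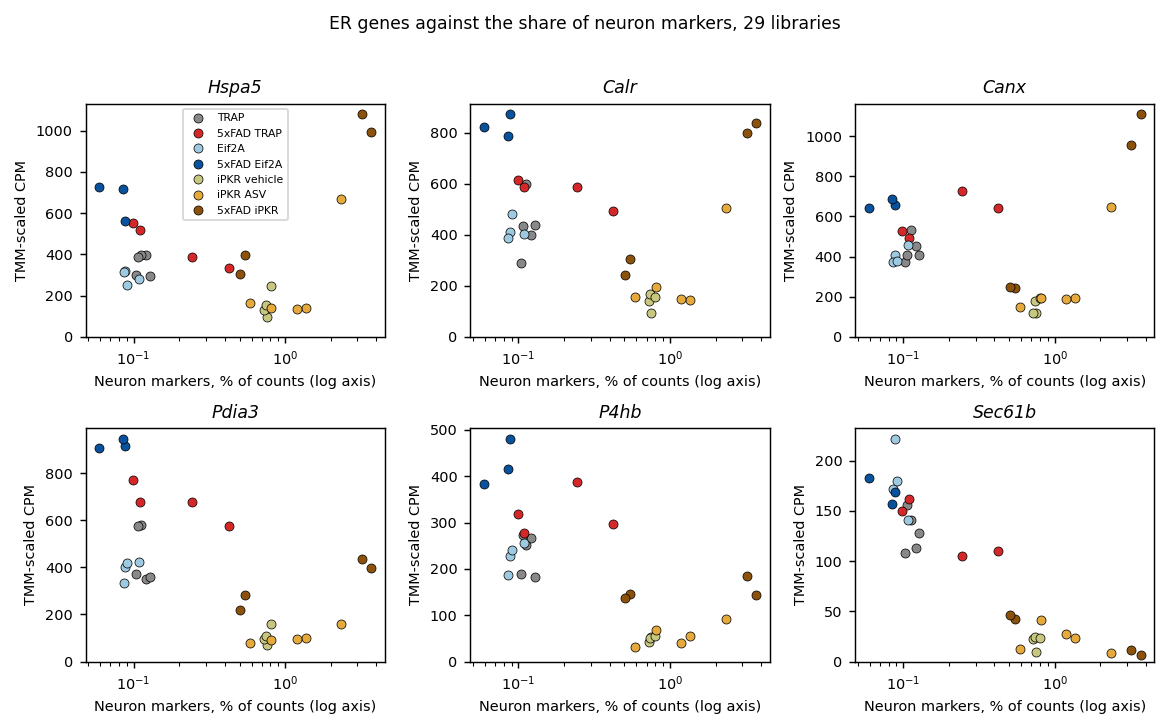
TMM-scaled CPM (vertical axes, from 0) of 6 ER genes against the share of 10 neuron markers in the counts (horizontal axes, percent, log scale) in the 29 libraries, coloured by group. The 3 libraries above 2% stand highest among the iPKR libraries for Hspa5, Calr and Canx and lowest of their groups for Sec61b, while P4hb in 5xFAD iPKR lies at 138 to 186 CPM in all 4 libraries.

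ASV against vehicle in iPKR mice without 5xFAD compares groups that both carried the construct and received VEGF. ASV is the drug that switches on the PKR construct, so that action and any other of the drug cannot be told apart. The comparison called 0 of 36 genes in edgeR and 0 in DESeq2, beside 0.423% of all genes in either direction. The 7 at an unadjusted p under 0.05 compare with 16.4% of all genes, which is near their share of the list. The median estimate was -0.01, with 17 of 36 above 0. Sec61a1 had the smallest p, at 58.9, 77.3, 89.8 and 88.4 CPM with vehicle and 38.6, 56.6, 52.4, 52.1 and 46.3 CPM with ASV, without overlap (-0.61 ± 0.18 SE, edgeR adjusted p = 0.13). It was the 1 gene of the 36 that fell without the 3 libraries rich in neuron markers (-0.70 ± 0.18 SE, edgeR adjusted p = 0.0424), beside 0.707% of all genes that fell. Hspa5 was at 96.8, 132, 157 and 248 CPM with vehicle, and apart from replicate 3 its ASV libraries lay within that range (95% interval of the log2 fold change -0.42 to 1.21). In batch 1 alone Derl2, a derlin, was the 1 gene of the 36 that fell (-1.44 ± 0.31 SE, edgeR adjusted p = 0.029), beside 1.06% of all genes. A single call of 36 is too few to be set against these shares.

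Far more of the genes differed between the iPKR line and the plain tag. In iPKR vehicle against TRAP, 27 of the 36 genes were lower and 2 higher, beside 25.4% of all genes lower and 28.6% higher. The median log2 fold change of the 36 was -1.30, beside 0.17 over all genes. All 5 isomerases, both lectin chaperones, 8 of 10 lumenal chaperones and 7 of 8 translocation genes fell.

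Edem1, which sorts misfolded glycoproteins for degradation (chromosome 6, 108828641 to 108859356), stood at 361, 421, 404, 374 and 406 CPM in TRAP and 49.1, 18.97, 30.1 and 57.4 CPM in iPKR vehicle (-3.50 ± 0.37 SE, edgeR adjusted p = 1.61e-08). Edem2 stood at 205, 310.1, 303, 312 and 388 CPM and 47.99, 43.8, 54.7 and 38.6 CPM (-2.92 ± 0.39 SE), and Edem3, the third of the family, was not called, at 27.4, 28.4, 26.6, 27.3 and 32.1 CPM and 41.6, 35.6, 30.1 and 35.7 CPM. Whether the 3 paralogs differ in their change was not tested. P4hb fell from 189, 268, 251, 182 and 273 CPM to 52.2, 42.5, 50.2 and 55.8 CPM (-2.07 ± 0.21 SE, edgeR adjusted p = 7.31e-09), and Spcs2, a signal peptidase subunit, from 441, 438, 621, 441 and 530.2 CPM to 70.3, 109.5, 138 and 119.7 CPM (-2.31 ± 0.23 SE). Xbp1 fell from 444, 511, 551, 398 and 499 CPM to 68.6, 155, 108 and 144 CPM (-2.11 ± 0.26 SE, edgeR adjusted p = 1.41e-07). Sec61b fell from 108, 113, 141, 128 and 156 CPM to 9.76, 22.97, 24.2 and 22.99 CPM (-2.88 ± 0.38 SE), whereas its channel partner Sec61a1 was at 68.3, 70.9, 72.02, 70.5 and 90.2 CPM and 58.9, 77.3, 89.8 and 88.4 CPM and was not called (95% interval of the log2 fold change -0.42 to 0.35). For each of these that fell, the groups did not overlap.

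The main chaperones had smaller estimates. Hspa5 had a log2 fold change of -0.97 ± 0.40 (SE, edgeR adjusted p = 0.044), Hsp90b1 -0.96 ± 0.41 (edgeR adjusted p = 0.0467) and Calr -1.37 ± 0.34. Sdf2l1 fell from 154, 228, 227, 195 and 205 CPM to 12.8, 50.3, 42.3 and 43.2 CPM (-2.67 ± 0.39 SE). The 2 that rose were Atf6, the membrane-bound sensor, from 31.2, 30.2, 28.3, 19.4 and 41.5 CPM to 76.7, 35.2, 62.02 and 50.8 CPM (0.96 ± 0.31 SE, edgeR adjusted p = 0.0109), and Syvn1 (0.56 ± 0.24 SE, edgeR adjusted p = 0.0496). In both the groups overlapped. With 1 library at a time left out, Syvn1 lost its call in 8 of 9, Hsp90b1 in 6 and Hspa5 in 4, while P4hb, Pdia3 and Edem1 kept theirs in all 9. Derl2, Sel1l, Os9, Edem3, Sil1, Hyou1 and Sec61a1 were the 7 not called. Without the 3 libraries rich in neuron markers, which belong to neither group but share the model, 29 were lower and 1, Atf6, higher, beside 24.7% of all genes lower and 27.8% higher. Syvn1 was not called there, while Os9 and Derl2 were.

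All 11 microglial markers also fell in this comparison, the median being -4.41 on the log2 scale, and all 10 neuron markers rose, the median being 2.60. What the iPKR allele, VEGF with vehicle and the makeup of the pulldown each contribute cannot be told apart. With 5xFAD on both sides, 5xFAD iPKR against 5xFAD TRAP, 20 of 36 were lower and 2 higher, beside 23% of all genes lower and 25% higher. Edem1 (-2.83 ± 0.38 SE), Edem2, Sec61b (-2.47 ± 0.39 SE), Sdf2l1 and Xbp1 (-1.92 ± 0.27 SE) were again among those that fell. Hspa5 (0.33 ± 0.42 SE), Hsp90b1, Calr and Canx were not called, and their groups overlapped. Without the 3 libraries rich in neuron markers, Calr (-1.27 ± 0.22 SE, edgeR adjusted p = 7.31e-05), Canx (-1.32 ± 0.23 SE, edgeR adjusted p = 6.72e-05) and Hsp90b1 (-1.21 ± 0.32 SE, edgeR adjusted p = 0.00444) fell. These 3 also fell in batch 2 alone (Calr -1.23 ± 0.30 SE, edgeR adjusted p = 0.00649). In batch 1 alone, which holds the 2 such libraries of 5xFAD iPKR, they were not called and had estimates above 0. Hspa5 rose in batch 1 alone (1.28 ± 0.48 SE, edgeR adjusted p = 0.0378) and had an estimate below 0 in batch 2 alone (-0.76 ± 0.32 SE, edgeR adjusted p = 0.105), so its direction differed between batches. The 2 that rose were Syvn1 (0.94 ± 0.27 SE, edgeR adjusted p = 0.00463) and its partner Sel1l (1.11 ± 0.29 SE, edgeR adjusted p = 0.00269). Sel1l stood at 96.5, 111, 81.9 and 79.2 CPM in 5xFAD TRAP and 267, 346, 97.2 and 148 CPM in 5xFAD iPKR, with its high pair in the 2 libraries rich in neuron markers. Without the 3 such libraries Sel1l was not called (0.51 ± 0.24 SE, edgeR adjusted p = 0.105), nor was it in batch 2 alone (0.58 ± 0.32 SE, edgeR adjusted p = 0.21). In all, 24 of the 36 were then lower and 1, Syvn1, higher, beside 17.5% of all genes lower and 20.1% higher. In batch 1 alone Syvn1 was not called (0.62 ± 0.38 SE, edgeR adjusted p = 0.204).

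The rest of the ER pathway was followed in 101 further tested genes in 9 lists. With 5xFAD, 1 rose on the plain tag, 6 on Eif2A and 7 on iPKR with ASV, and 0 fell. The shares over all genes that rose were 0.709%, 2.08% and 1.54%, so that the 1 of 101 on the plain tag lies near its background. On iPKR with ASV 7 of 100 tested rose without the 3 libraries rich in neuron markers, beside 3.97% of all genes in that fit. On the plain tag it was Prdx4, an ER peroxiredoxin (1.18 ± 0.23 SE, edgeR adjusted p = 0.00696), which also rose on Eif2A (1.504 ± 0.25 SE, edgeR adjusted p = 0.000571). On Eif2A the others included Ero1l, which reoxidises protein disulfide isomerase (1.43 ± 0.35 SE), the oligosaccharyltransferase subunits Ddost (0.83 ± 0.22 SE) and Rpn2 (1.29 ± 0.35 SE), and Srpr, the receptor of the signal recognition particle (0.84 ± 0.20 SE). On iPKR with ASV they included Ddost (0.78 ± 0.19 SE) and Rpn2 (1.21 ± 0.31 SE) again, Tmx1 (0.78 ± 0.18 SE) and Ero1lb (0.86 ± 0.22 SE). Of 12 oligosaccharyltransferase genes 2 rose on Eif2A and 3 on iPKR.

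The arm of the response that runs through PERK, ATF4 and CHOP is the other branch of the unfolded protein response followed here. In the 3 comparisons with 5xFAD, 0 of its 7 listed genes were called. Over all genes 0.709% rose and 0.0809% fell on the plain tag, 2.08% and 1.03% on Eif2A, and 1.54% and 0.18% on iPKR with ASV. With shares this low, 0 of 7 does not show whether the arm responded. In iPKR vehicle against TRAP 4 of 7 rose and 0 fell, with a median log2 fold change of 1.48, beside 28.6% of all genes that rose and 27 of 36 chaperone and quality-control genes that fell. In 5xFAD iPKR against 5xFAD TRAP 4 of 7 rose too, beside 25% of all genes, among them Asns, an ATF4 target in amino acid synthesis (2.64 ± 0.51 SE, edgeR adjusted p = 0.00011), and Chac1 (2.53 ± 0.54 SE, edgeR adjusted p = 0.000346). The difference between the 2 lists was not tested. The count was also 4 of 7 in each of these comparisons without the 3 libraries rich in neuron markers. Over the 101 genes, 47 fell and 15 rose in iPKR vehicle against TRAP, and 44 fell and 11 rose in 5xFAD iPKR against 5xFAD TRAP. Over all genes 25.4% fell and 28.6% rose in the first, and 23% fell and 25% rose in the second. With the 3 libraries left out, 53 of 100 fell and 16 rose in the first, and 46 fell and 9 rose in the second. Those 2 comparisons share no library, while 5xFAD TRAP against TRAP shares TRAP with the first and 5xFAD TRAP with the second.

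Of the 8 genes with an ER stress response element, 1 (Syvn1) was among the 7 that rose with 5xFAD on Eif2A. Of all genes 2.08% rose there. In the 4 groups without iPKR all of the 8 but Creld2 (edgeR adjusted p = 0.0611) rose, beside 22 of the 36 and 8.7% of all genes. On iPKR with ASV 4 (Hspa5, Pdia6, Calr and Creld2) were among the 9, beside 1.54% of all genes. Without the 3 libraries rich in neuron markers Hspa5, Pdia6 and Syvn1 were those of the 8 that rose, beside 3.97% of all genes. Pdia3, P4hb and Pdia4 had no such match or no promoter in the table, which says nothing of the factors that act on them.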

How the data were processed

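RNA bound to eGFP-tagged ribosomes from mouse cortex was sequenced in 29 libraries of 7 groups. The authors deposited whole-number counts per gene symbol, for which the submitters' processing notes name featureCounts 2.0.3, HISAT2 2.2.1, Trim Galore and the mm10 build. The counted feature, strand setting, treatment of multiply mapped reads and annotation are not given in the sources used here, and the SMART-Seq libraries carried no molecular identifiers. The authors also deposited RPKM values. Their implied lengths came within 0.1% of the whole gene span for 86.4% of 21405 genes with 1 model in GENCODE M21, and of the exonic length for 0.00527% of 18990, so they were used only for this check. All columns of per-sample values were matched to a sample by name.

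Genes were kept by edgeR's filterByExpr (minimum count 10, total 15), which left 16074, and counts were scaled by TMM. The quasi-likelihood test of edgeR 4.0.16 (R 4.3.3, limma 3.58.1) was fitted to all 29 libraries with group, batch and labelled sex (20 residual degrees of freedom). P-values were two-sided and adjusted by Benjamini-Hochberg over all genes, with a threshold of 0.05. The scripts were tested on simulated data. Members were listed by function, and both members and lists were chosen with earlier results of these data known. The rule named up to 8 called members of each comparison by smallest p and, called or not, Hspa5, Hsp90b1, Pdia3, Calr, Sec61b, Xbp1 and Sdf2l1, with up to 2 genes of each further list. Other members were named after their values were seen.

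Alternatives were RLE size factors, no filter, no sex term, the replicate number as a block, batch 1 alone, only the groups compared, DESeq2 1.42.0 and each library left out. Batch 2 alone, the 4 groups without iPKR and leaving out the 3 libraries richest in neuron markers were added after seeing the data. Deviations of same-numbered libraries correlated above 0.1 in every pair only in 5xFAD iPKR against 5xFAD TRAP (0.113 to 0.216), with no source for the pairing in the labels. Promoter sequences came from RefSeq (GRCm38.p6).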

Additional observations from a re-analysis of the deposited data

Results flagged for a closer look

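Of 216 sets of values, 1 gene in 1 group of 4 or 5 libraries each, 20 held a library standing apart from the rest by Dixon's test at 95%, where chance gives about 1 in 20. All values are TMM-scaled CPM. No explanation was tested. Replicate 3 of iPKR ASV, the library of that group richest in neuron markers (2.33% of counts), stood apart on the high side in 7 of them. It held Hspa5 at 668.7 against 133 to 162 in the other 4 libraries, Canx at 645.1 against 150.1 to 196 and Calr at 504.0 against 143 to 194. It also held Hsp90b1 at 291.3, the degradation genes Os9 at 286.0 and Sel1l at 242.1, and Pdia3 at 158.2. In the same group replicate 5 was high for the signal peptidase gene Spcs2 (198.1 against 75.5 to 102).

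Replicate 1 of 5xFAD TRAP, which held 0.423% of neuron markers, was low for 4 genes, namely Edem2 (303.7), Dnajb11 (114.8), Txndc5 (93.44) and Sec61a1 (72.75). Replicate 2 of the same group was high for Hsp90b1 (284.9). In iPKR vehicle, replicate 1 was low for Dnajb11 (32.64) and Sec61b (9.764 against 23.0 to 24.2), and replicate 4 was high for Derl1 (97.78). The others were single flags. P4hb was high in 5xFAD iPKR replicate 1 (185.5), Dnajb11 low in Eif2A replicate 2 (97.1), Hyou1 high in Eif2A replicate 4 (18.89) and Sec61a1 high in TRAP replicate 5 (90.2), the single TRAP library of batch 2.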

How the results depend on the processing

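Of the genes followed under the naming rule, no value called in the full model changed sign under the alternatives run. In 5xFAD iPKR against 5xFAD TRAP the signs of Calr, Canx, Hsp90b1 and Hspa5 did differ between batch 1 alone and batch 2 alone. The full model did not call these genes there. The cause of these changes and of those below was not tested. The counts called of the 36 genes moved with the libraries in the model, which sets the genes kept, the scaling, the batch and sex terms and the spread together. With only the groups compared, 6 (0 in the full model) were called in 5xFAD TRAP against TRAP, 22 (7) in 5xFAD Eif2A against Eif2A, 0 (9) in 5xFAD iPKR against iPKR ASV, 16 (0) in 5xFAD Eif2A against 5xFAD TRAP and 1 (0) in the difference of 5xFAD effects on Eif2A and the plain tag. Over all genes in these fits, 3.85% rose and 2.26% fell in 5xFAD TRAP against TRAP. The shares were 7.89% and 5.06% in 5xFAD Eif2A against Eif2A, and 0.0668% and 0.00742% in 5xFAD iPKR against iPKR ASV. They were 5.66% and 3.4% in 5xFAD Eif2A against 5xFAD TRAP, and 0.167% and 0.138% in the difference. In the 4 groups without iPKR the counts called were 6, 22, 7 and 1 for the comparisons among them, and 2 (0) for Eif2A against TRAP. The shares over all genes in that fit, and in each batch alone, are given above with each comparison. Without the 3 libraries richest in neuron markers 18 were called in 5xFAD Eif2A against Eif2A and 1 in iPKR ASV against iPKR vehicle. The share over all genes beside the 18 is not given here. Batch 1 alone gave 13 in 5xFAD Eif2A against Eif2A and 1 in iPKR ASV against iPKR vehicle, and batch 2 alone gave 1 in 5xFAD iPKR against iPKR ASV.

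Without the low-count filter 5 were called in 5xFAD iPKR against iPKR ASV, beside 0.833% of all genes that rose and 0.103% that fell. DESeq2 called 1 in 5xFAD Eif2A against 5xFAD TRAP and 1 in the difference of the 5xFAD effects on iPKR and the plain tag. Its shares over all genes are not given here. With the replicate block, 5 in place of 9 were called in 5xFAD iPKR against iPKR ASV, whose same-numbered libraries correlated at -0.498 to 0.102. In 5xFAD iPKR against 5xFAD TRAP the block left 20 lower and 2 higher, while Derl2 lost its call (edgeR adjusted p = 0.0527) and Ern1 gained one (0.0464). With each library left out in turn, the count ran from 3 to 7 in 5xFAD Eif2A against Eif2A, from 5 to 14 in 5xFAD iPKR against iPKR ASV, from 25 to 28 in iPKR vehicle against TRAP and from 21 to 23 in 5xFAD iPKR against 5xFAD TRAP. The shares over all genes moved with these fits too. In 5xFAD Eif2A against Eif2A they ran from 1.02 to 1.62% of all genes that rose.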
